A study of Mus musculus with 6 samples.

Results

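The endothelial identity genes examined here are 36 genes whose products mark or build the inner lining of blood and lymph vessels: transcription factors, junction proteins, surface receptors, secreted proteins, regulators of coagulation and vessel tone, and scavenger receptors. They were chosen by name, each through a probe set with that 1 gene symbol, and the ligands and receptors of the VEGF and angiopoietin systems were left out. All 36 had a probe set, none had more than 1, and all passed the filter on low values, so they make up 36 of the 18710 genes tested. Expression was measured on 6 Affymetrix arrays of total RNA from mouse spleens at E13.5, in mid-gestation. The groups were 3 arrays of spleens from Tlx1 homozygous embryos and 3 arrays of spleens from Tlx1 heterozygous embryos, so every sample carried at least 1 altered Tlx1 copy and no wild-type spleen was compared. Tlx1 is a homeobox gene needed for the spleen to form: without it the early spleen is laid down but does not persist. Since the labels give only the zygosity, the homozygous group is taken to carry the altered allele on both copies, and the kind of allele is unknown here. Whether a replicate was 1 embryo or a pool is not stated either, so the p-values cover the spread among these 6 arrays and no more, and that spread may be technical.

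Endothelial cells line every vessel, hold together through adherens and tight junctions, and keep blood from clotting on their surface. Their identity is set by ETS family factors (Erg, Fli1, Ets1), by the SoxF factors (Sox7, Sox17, Sox18) and, where blood and endothelium arise together, by Tal1 and Lmo2. In the embryo the spleen begins as a condensation of mesenchyme into which vessels grow, and in the adult its red pulp holds venous sinuses whose lining carries scavenger receptors such as Stab2. Several of these genes are also active in blood cells, so a change in whole spleen RNA can come from more than 1 cell type.

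Array medians lay between 106 and 110 intensity units, and the correlation of log2 values across genes was 0.995 to 0.997 between arrays of 1 group and 0.989 to 0.993 between arrays of different groups. Tlx1 itself had intensities of 171, 209 and 200 on the homozygous arrays, against 825, 706 and 719 on the heterozygous arrays, a log2 fold change (homozygous minus heterozygous, on log2(intensity + 1)) of -1.95 ± 0.09 (SE). The groups were apart at the gene named in their labels, although whether its probe set lies in the altered stretch is not known here. The 3 measured Y-linked genes were brightest on heterozygous replicates 1 and 3 (means of log2 values of 8.76 and 8.99, against 8.07 to 8.22 on the other arrays), and for this reason each call below was also examined with their level as a covariate.

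Most endothelial identity genes were lower in homozygous spleens, by modest amounts. By limma with Benjamini-Hochberg adjustment over all 18710 genes at an adjusted p of 0.05, 20 of the 36 were lower, 3 were higher and 13 did not pass. Among all genes tested 6.56% were called lower and 10.4% higher, so the share lower was above the background among these genes and the share higher was near it. The genes were chosen with earlier results of these data known, so this excess is a description and no independent evidence. The median log2 fold change of the members was -0.32, that is 1.25-fold lower, against 0.02 over all genes tested. Estimates lay below 0 for 28 of the 36, against 46.4% of all genes. The intensities of the members summed to between 14258 and 15289 units on the homozygous arrays, against 18269 to 18568 units on the heterozygous arrays, and the homozygous mean of that sum was 80.3% of the heterozygous mean. These are bulk samples, so fewer endothelial cells and less RNA per cell cannot be told apart. The part of other tissues in the samples, whose markers are given below, was not tested.

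**Figure D1:**
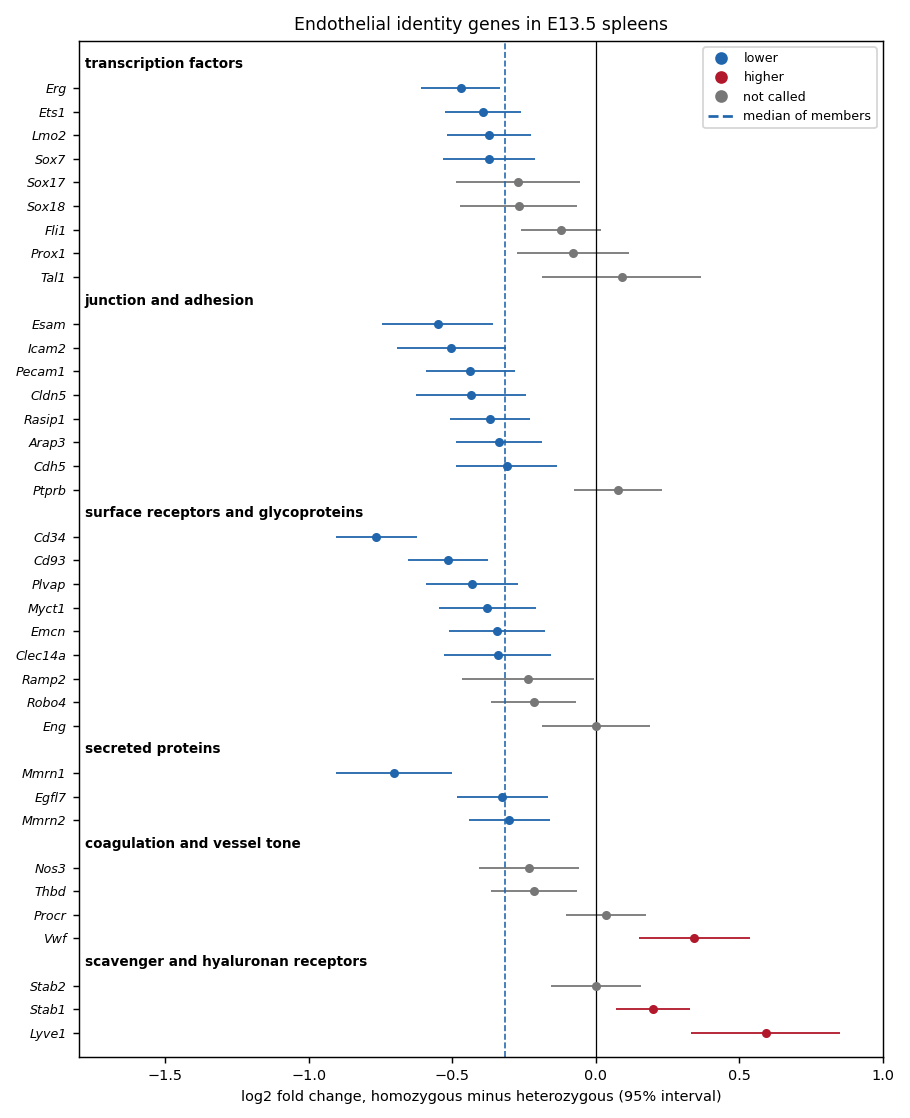
Log2 fold change of each of the 36 members (points), homozygous minus heterozygous, with its 95% interval (bars), grouped by role; blue points were called lower, red higher and grey were not called, and the dashed line is the members' median of -0.32. The largest falls are those of Cd34 and Mmrn1, and Vwf, Stab1 and Lyve1 lie to the right of 0.

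The falls lay among the junction, surface receptor, secreted protein and transcription factor genes, and the rises lay in the other roles. Among all genes tested 6.56% were called lower and 10.4% higher. Among 8 junction and adhesion genes 7 fell, among 9 surface receptors and glycoproteins 6 fell, all 3 secreted proteins fell, and among 9 transcription factors 4 fell. The 4 genes of coagulation and vessel tone held 1 rise and 3 genes that did not pass, and the 3 scavenger and hyaluronan receptors held 2 rises and 1 gene that did not pass. Group medians were -0.40 for junction and adhesion genes, -0.34 for surface receptors, -0.33 for secreted proteins, -0.27 for transcription factors, -0.09 for coagulation and vessel tone and 0.20 for the scavenger receptors. These groups are small and the differences between their medians were not tested.

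Sequences before the start of some members are shown here because many members moved together, ETS, SOX and E-box proteins (Tal1) are among the factors named above, and GATA factors act with Tal1 and Lmo2. RefSeq promoters of the build GRCm38.p6 were found for 16 of the 36 genes, at 22 starts, and the 250 bases before each start were searched on both strands. For the ETS family the word was AGGAAG, and the same word with another first letter, that is CGGAAG, was counted with it. For the GATA family it was AGATAA, for the SOX family it was ACAATG, and for the E-box of Tal1 it was CAGATG; none of these words is part of another. At least 1 ETS word stood in 11 of the 22 member promoters, against 39.2% of all 32851 promoters of the same length. The GATA word stood in 13.6% of member promoters against 9.99% of all, the SOX word in 9.09% against 10.7%, and the E-box word in 18.2% against 14.4%. An ETS word was held by 5 of the 9 genes called lower whose promoter was known, and by 5 of the 7 such genes not called lower. The 6 shown are the genes with the largest falls (Cd34 and Mmrn1), a sialomucin called lower (Emcn), a receptor near the threshold (Robo4), a gene with no difference in the estimate (Eng) and a gene called higher (Stab1). They lie at chr1:194938571-194938820 on the plus strand (Cd34), chr6:60944067-60944316 on the plus strand (Mmrn1), chr3:137340828-137341077 on the plus strand (Emcn), chr9:37401722-37401971 on the plus strand (Robo4), chr2:32646345-32646594 on the plus strand (Eng) and chr14:31168642-31168891 on the minus strand (Stab1). Each is written 5′ to 3′ in the direction of its gene and ends at the base before the start, and capitals mark the words found on either strand.
Cd34: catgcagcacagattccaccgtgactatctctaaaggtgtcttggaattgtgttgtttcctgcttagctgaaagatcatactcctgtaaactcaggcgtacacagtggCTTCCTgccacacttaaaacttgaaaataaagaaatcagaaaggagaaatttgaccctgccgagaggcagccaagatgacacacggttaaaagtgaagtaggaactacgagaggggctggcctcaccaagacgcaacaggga
Mmrn1: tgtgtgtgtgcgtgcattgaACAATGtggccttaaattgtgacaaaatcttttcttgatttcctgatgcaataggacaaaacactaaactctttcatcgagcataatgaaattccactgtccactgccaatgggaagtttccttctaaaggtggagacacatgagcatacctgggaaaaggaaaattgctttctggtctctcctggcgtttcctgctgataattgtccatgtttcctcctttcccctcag
Emcn: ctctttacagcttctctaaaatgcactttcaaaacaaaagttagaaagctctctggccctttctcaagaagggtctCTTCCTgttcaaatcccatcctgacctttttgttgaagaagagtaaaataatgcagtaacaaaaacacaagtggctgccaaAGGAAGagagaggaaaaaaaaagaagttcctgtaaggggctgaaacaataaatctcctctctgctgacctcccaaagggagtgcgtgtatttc
Robo4: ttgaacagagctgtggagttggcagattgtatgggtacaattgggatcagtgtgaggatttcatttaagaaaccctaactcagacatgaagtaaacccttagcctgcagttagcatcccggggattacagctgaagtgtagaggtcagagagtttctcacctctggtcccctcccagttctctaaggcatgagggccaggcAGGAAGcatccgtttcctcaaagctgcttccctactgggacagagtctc
Eng: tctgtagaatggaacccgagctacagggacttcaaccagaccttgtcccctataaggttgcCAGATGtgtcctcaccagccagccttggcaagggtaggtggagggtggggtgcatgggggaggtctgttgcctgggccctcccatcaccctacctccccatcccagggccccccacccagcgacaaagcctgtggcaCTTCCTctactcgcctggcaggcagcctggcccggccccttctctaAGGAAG
Stab1: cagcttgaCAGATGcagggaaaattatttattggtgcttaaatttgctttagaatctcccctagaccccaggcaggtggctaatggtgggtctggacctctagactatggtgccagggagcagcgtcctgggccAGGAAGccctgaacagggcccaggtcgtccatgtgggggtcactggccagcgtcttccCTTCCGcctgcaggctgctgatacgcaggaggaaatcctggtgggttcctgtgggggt
Cd34 held 1 ETS word, Emcn 2 and Robo4 1. Mmrn1 held no ETS word and 1 SOX word, while Eng and Stab1, which were not called lower, each held 2 ETS words and 1 E-box word. A match is a string of letters and is no evidence of binding, and a window without a match says nothing of the factor.

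Transcription factors of the endothelium fell in part. Erg, an ETS factor that maintains endothelial junctions, had intensities of 354, 368 and 382 on the homozygous arrays, against 502, 522 and 506 on the heterozygous arrays. The groups did not overlap, and the log2 fold change was -0.47 ± 0.06 (SE, adjusted p = 0.00258). Ets1, an ETS factor shared with lymphocytes, stood at 897, 925 and 879 in homozygous and 1205, 1179 and 1159 in heterozygous spleens, a fall of 1.31-fold (-0.39 ± 0.06, adjusted p = 0.00454). Fli1, the ETS factor shared with megakaryocytes, had 791, 822 and 813 in homozygous spleens, against 921, 855 and 865 in heterozygous spleens. Its values did not overlap either, but the difference was small and did not pass (-0.12 ± 0.06, adjusted p = 0.196), with a 95% interval of -0.26 to 0.02.

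The SoxF factors, which act together in vessel growth and in the choice between arteries, veins and lymphatics, had estimates below 0 in each case and 1 call. Sox7 averaged 299 ± 14.8 in homozygous and 387 ± 22.5 in heterozygous spleens (SD, n = 3 each), a log2 fold change of -0.37 ± 0.07 (adjusted p = 0.0114). Sox17 averaged 151 ± 17.3 in homozygous and 182 ± 12.3 in heterozygous spleens, at -0.27 ± 0.09 (adjusted p = 0.0811), with no overlap. Sox18 averaged 303 ± 30.2 in homozygous and 365 ± 29.0 in heterozygous spleens, at -0.27 ± 0.09 (adjusted p = 0.0728), and homozygous replicate 3, at 338, reached the lowest heterozygous value. Without that array Sox18 passed (-0.35, adjusted p = 0.0448), and it also passed with a pseudocount of 16, with a variance trend and robust fit and with array weights. Sox17 passed with the replicate number as a block (adjusted p = 0.0428). Whether Sox7 differs from its relatives was not tested.

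Lmo2 and Tal1, partners in a complex of early blood and endothelial cells, lay apart. Lmo2 had 551, 510 and 546 in homozygous spleens, against 677, 678 and 727 in heterozygous spleens, and it fell by 0.37 ± 0.06 on the log2 scale (adjusted p = 0.00831, or 0.061 with the Y-linked covariate). Tal1 had 170, 159 and 202 in homozygous spleens, against 176, 140 and 184 in heterozygous spleens, and the groups overlapped. Its estimate of 0.09 ± 0.12 had the widest error of the 36 and an interval of -0.19 to 0.37, and it changed sign without homozygous replicate 3 (-0.0076) or heterozygous replicate 2 (-0.031). Prox1, the factor that sets lymphatic identity, had 80, 71 and 76 in homozygous spleens, against 90, 75 and 76 in heterozygous spleens. The groups overlapped (-0.08 ± 0.09, adjusted p = 0.553), and without heterozygous replicate 1 the estimate was 0.0046.

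Junction genes fell nearly as a group. Esam, an adhesion molecule of endothelial tight junctions and platelets, had 323, 266 and 305 in homozygous spleens, against 448, 451 and 409 in heterozygous spleens (-0.55 ± 0.08, adjusted p = 0.00523). Icam2, a ligand for leukocyte integrins, had 172, 168 and 193 in homozygous spleens, against 251, 274 and 233 in heterozygous spleens (-0.50 ± 0.08, adjusted p = 0.00682). Pecam1, the CD31 adhesion molecule, had 599, 661 and 593 in homozygous spleens, against 841, 805 and 861 in heterozygous spleens (-0.44 ± 0.07, adjusted p = 0.00546). In these 3 genes every homozygous value lay below every heterozygous value, as it did in 17.2% of all genes. Cldn5, the claudin of endothelial tight junctions, fell by 0.43 ± 0.08 on the log2 scale. Rasip1, a Ras-binding protein needed for vessel lumens, fell by 0.37 ± 0.06, and Arap3, a GTPase-activating protein, by 0.34 ± 0.07. The calls of Cldn5 and Arap3 did not hold without homozygous replicate 1 (-0.38 and -0.31, adjusted p = 0.0513 and 0.0544) or when the Y-linked covariate was added (adjusted p = 0.052 and 0.0807).

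Cdh5, the VE-cadherin of adherens junctions, was the least stable call among the junction genes. It had 684, 681 and 779 in homozygous spleens, against 846, 869 and 942 in heterozygous spleens. The groups did not overlap and the log2 fold change was -0.31 ± 0.08 (adjusted p = 0.0287). That call held in 1 of the 6 refits without 1 array, the refit without homozygous replicate 3 (-0.37), and was lost in the other 5 (-0.34 to -0.27), after quantile normalization (-0.27, adjusted p = 0.0512), after cyclic loess (-0.26, adjusted p = 0.0603) and with the Y-linked covariate (-0.28, adjusted p = 0.14). Ptprb, the phosphatase VE-PTP that pairs with VE-cadherin, was the junction gene that was not called. Its values were 204, 197 and 203 in homozygous spleens, against 182, 185 and 205 in heterozygous spleens, and its interval of -0.08 to 0.23 lay wholly above the members' median.

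**Figure D2:**
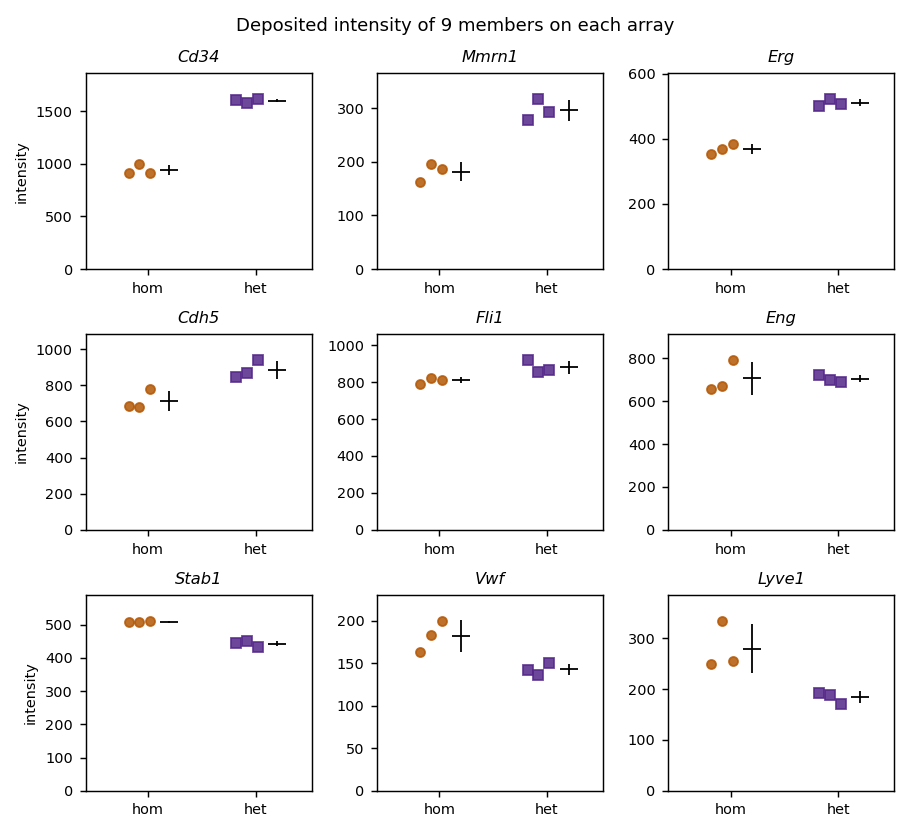
Deposited intensity (linear axis from 0) of 9 members on each array, with homozygous arrays as circles on the left, heterozygous arrays as squares on the right, and the mean ± SD of each group (n = 3) beside the points. Cd34, Mmrn1, Erg, Cdh5 and Fli1 are lower on every homozygous array, although Fli1 was not called. Eng overlaps between the groups, and Stab1, Vwf and Lyve1 are higher on every homozygous array.

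Surface sialomucins and C-type lectins fell, and Cd34 moved most of all 36. Cd34, a sialomucin of endothelium, of blood progenitors and of some mesenchyme, had 917, 995 and 916 in homozygous spleens, against 1602, 1582 and 1618 in heterozygous spleens. It was 1.70-fold lower (-0.76 ± 0.06, adjusted p = 0.000286), and 0.561% of all genes tested had a lower estimate. Emcn, the sialomucin of capillaries and veins, had 827, 901 and 971 in homozygous spleens, against 1123, 1120 and 1176 in heterozygous spleens (-0.34 ± 0.07, adjusted p = 0.0176). In both genes every homozygous value lay below every heterozygous value, as it did in 17.2% of all genes. The call of Emcn, however, was lost without homozygous replicate 1 (-0.28, adjusted p = 0.0628), without heterozygous replicate 2 (-0.36, adjusted p = 0.051) and with the Y-linked covariate (adjusted p = 0.0878).

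The lectin-like receptors Cd93 and Clec14a and their shared matrix ligand Mmrn2 were all lower. Cd93 had 779, 823 and 804 in homozygous spleens, against 1106, 1142 and 1192 in heterozygous spleens (-0.52 ± 0.06, adjusted p = 0.00179). Clec14a had 159, 165 and 136 in homozygous spleens, against 200, 191 and 191 in heterozygous spleens (-0.34 ± 0.08, adjusted p = 0.026). Mmrn2 had 273, 270 and 291 in homozygous spleens, against 337, 338 and 354 in heterozygous spleens (-0.30 ± 0.06, adjusted p = 0.0153). In all 3 every homozygous value lay below every heterozygous value, as it did in 17.2% of all genes. Cd93 kept its call in every alternative, whereas that of Mmrn2 did not survive the loss of homozygous replicate 1 (-0.29) or the Y-linked covariate (adjusted p = 0.0907). Clec14a kept its call without homozygous replicate 2 or 3, and lost it without homozygous replicate 1 (-0.37), without any 1 heterozygous array (-0.35 to -0.32) and with the Y-linked covariate (adjusted p = 0.126).

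Plvap, which forms the diaphragms of fenestrated and sinusoidal endothelium, averaged 496 ± 33.0 in homozygous and 669 ± 22.5 in heterozygous spleens (SD, n = 3 each; -0.43 ± 0.07, adjusted p = 0.00634). Myct1, an endothelial membrane protein, averaged 155 ± 10.9 in homozygous and 201 ± 10.4 in heterozygous spleens (-0.38 ± 0.07, adjusted p = 0.0135). The call of Myct1 was lost without homozygous replicate 1 (-0.32, adjusted p = 0.0506) or heterozygous replicate 2 (-0.34, adjusted p = 0.0522), and that of Plvap in no alternative. Robo4, a receptor that stabilises vessels, had 242, 257 and 271 in homozygous spleens, against 294, 296 and 304 in heterozygous spleens. Its groups were apart and it lay next to the threshold (-0.22 ± 0.07, adjusted p = 0.053), passing with the stricter filter (adjusted p = 0.0335), a pseudocount of 16 (0.0393), a variance trend and robust fit (0.0339) and array weights (0.022).

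In Ramp2 and Eng, homozygous replicate 3 was the brightest homozygous array. Ramp2, the partner that turns Calcrl into an adrenomedullin receptor, had 1118, 1132 and 1398 in homozygous spleens, against 1510, 1476 and 1300 in heterozygous spleens (-0.24 ± 0.10, adjusted p = 0.137). Homozygous replicate 3, at 1398, lay above heterozygous replicate 3, the lowest of its group at 1300, and below the other heterozygous arrays. Without homozygous replicate 3 Ramp2 passed (-0.34, adjusted p = 0.0468), the only refit without 1 array in which it did. It also passed with array weights (adjusted p = 0.0412). Eng, the TGF-beta co-receptor endoglin, had 654, 671 and 793 in homozygous spleens, against 722, 697 and 690 in heterozygous spleens. Homozygous replicate 3 was the brightest of all 6 arrays. The estimate was 0.00 ± 0.08 with an interval of -0.19 to 0.19, and without that array it was -0.085 and did not pass. Eng was called in no alternative.

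Across members, homozygous replicate 3 lay highest of its group. The median over the 36 genes of the log2 deviation from each gene's own mean was -0.18, -0.15 and -0.11 on homozygous replicates 1, 2 and 3, against 0.18, 0.14 and 0.15 on the heterozygous arrays. The gap between the groups was thus wider than the spread within either, and the same medians over all genes tested lay between -0.01 and 0.03 on the 6 arrays. The count of falls depended most on homozygous replicate 1, the array with the lowest member median: without it 12 members were lower and 2 higher, while the median fold change was -0.30. A single member was higher without homozygous replicate 2 or 3 or heterozygous replicate 1 or 2. Without homozygous replicate 1, 2.67% of all genes were lower and 3.74% higher, so the background fell as well. Of all genes, 12.4% were higher without homozygous replicate 2 and 5.28% without homozygous replicate 3.

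**Figure D3:**
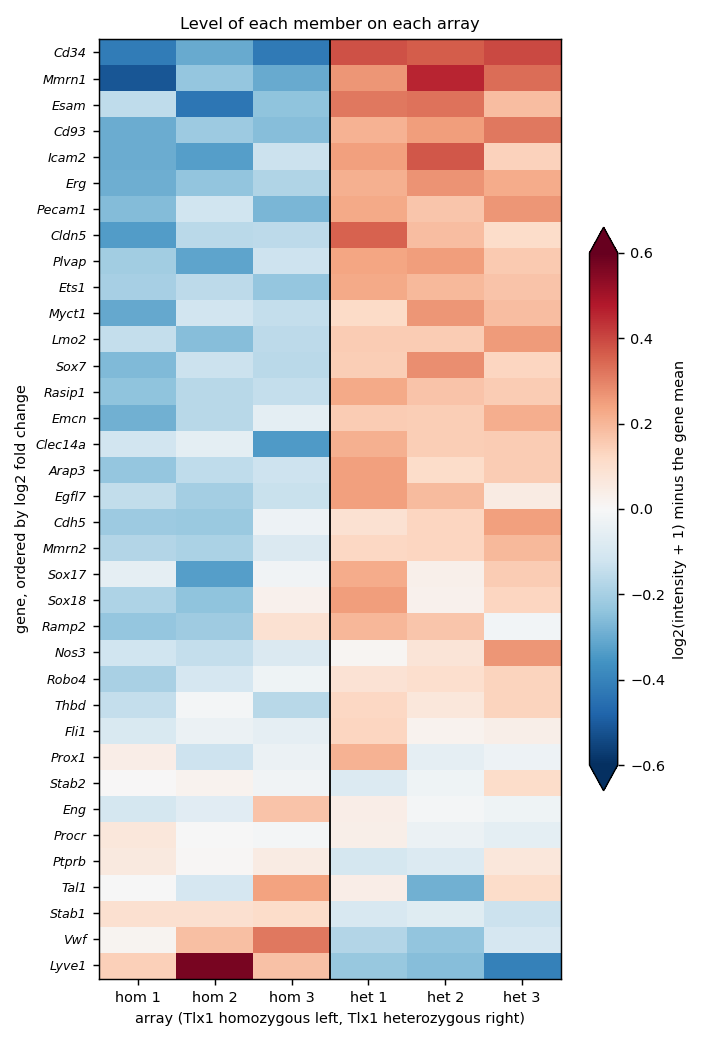
Log2(intensity + 1) of each member on each array minus the gene's mean over the 6 arrays (colour scale, blue below and red above), with the homozygous arrays left of the line and the heterozygous arrays right of it, and genes ordered from the largest fall (Cd34) to the largest rise (Lyve1). Rows from Cd34 to Mmrn2 are blue on all homozygous arrays and red on all heterozygous arrays, and the last 3 rows show the opposite.

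Secreted endothelial proteins fell. Mmrn1, a multimerin stored in endothelium and platelets, had 162, 197 and 187 in homozygous spleens, against 278, 318 and 292 in heterozygous spleens. It was 1.63-fold lower (-0.70 ± 0.09, adjusted p = 0.0023), the second of the 36 after Cd34, and it kept its call in every alternative. Egfl7, a matrix protein that guides sprouting vessels, had 496, 477 and 500 in homozygous spleens, against 652, 627 and 569 in heterozygous spleens (-0.33 ± 0.07, adjusted p = 0.0179). Its call was lost without homozygous replicate 1 (-0.33, adjusted p = 0.0601), without heterozygous replicate 1 (-0.28, adjusted p = 0.0636) or 2 (-0.31, adjusted p = 0.0651) and with the Y-linked covariate (adjusted p = 0.0531).

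Among the genes of coagulation and vessel tone Vwf rose, and the other 3 did not pass. Vwf, the von Willebrand factor stored in endothelium and platelets, had 163, 183 and 200 in homozygous spleens, against 142, 137 and 150 in heterozygous spleens. Every homozygous value lay above every heterozygous value (0.34 ± 0.08, adjusted p = 0.0281). The call held without homozygous replicate 1 or heterozygous replicate 3 and was lost in the other refits without 1 array (0.27 to 0.34 without homozygous replicate 2 or 3 or heterozygous replicate 1 or 2) and with the Y-linked covariate (0.38, adjusted p = 0.0831). Thbd, thrombomodulin, had 158, 174 and 156 in homozygous spleens, against 190, 183 and 192 in heterozygous spleens (-0.22 ± 0.07, adjusted p = 0.0563). Nos3, the endothelial nitric oxide synthase, had 125, 123 and 128 in homozygous spleens, against 137, 144 and 164 in heterozygous spleens (-0.23 ± 0.08, adjusted p = 0.0683). Both were near the threshold, with every homozygous value below every heterozygous value, as in 17.2% of all genes. Thbd passed with the stricter filter, a pseudocount of 16, median centring, array weights and without homozygous replicate 2 (-0.26, adjusted p = 0.0319), and Nos3 with the stricter filter, median centring and cyclic loess (-0.27, adjusted p = 0.0423). Procr, the endothelial protein C receptor, averaged 130 ± 3.86 in homozygous and 126 ± 4.36 in heterozygous spleens, and its interval was -0.10 to 0.17.

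The scavenger and hyaluronan receptors were the role group with no estimate clearly below 0. Lyve1, a hyaluronan receptor of lymphatic and sinusoidal endothelium and of some macrophages, had 249, 335 and 255 in homozygous spleens, against 192, 189 and 170 in heterozygous spleens. It was the largest rise of the 36 (0.59 ± 0.11, adjusted p = 0.0124) and was called in all 6 refits without 1 array (0.45 to 0.67), but not with the Y-linked covariate (0.53, adjusted p = 0.072). Stab1, a scavenger receptor of sinusoidal endothelium and macrophages, had 508, 507 and 512 in homozygous spleens, against 444, 451 and 434 in heterozygous spleens (0.20 ± 0.06, adjusted p = 0.0445). The values did not overlap, yet the call lay at the threshold and was lost in every refit without 1 array (0.18 to 0.21), after median centring (0.18, adjusted p = 0.0829), with the replicate number as a block (adjusted p = 0.0896) and with the Y-linked covariate (0.17, adjusted p = 0.224). Stab2, its relative in sinusoidal endothelium, had 133, 135 and 131 in homozygous spleens, against 126, 131 and 144 in heterozygous spleens, with an interval of -0.16 to 0.16 around an estimate near 0.

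Of the 13 genes that did not pass, 7 had a 95% interval wholly above the members' median of -0.32: Fli1, Prox1, Stab2, Eng, Procr, Ptprb and Tal1. The other 6 (Sox17, Sox18, Ramp2, Nos3, Robo4 and Thbd) had estimates of -0.27 to -0.22 and passed in at least 1 alternative.

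In all, 25 members had every homozygous value below every heterozygous value, against 17.2% of all genes, and 3 had every value above, against 21.1% of all genes (38.3% of all genes had groups apart in either direction, and 17% were called in either direction). Among the 20 genes called lower, 11 were called in all 17 alternatives: Cd34, Mmrn1, Esam, Cd93, Icam2, Erg, Pecam1, Plvap, Ets1, Sox7 and Rasip1. The falls of these 11 lay between -0.76 and -0.37 on the log2 scale. Each of the 3 genes called higher lost its call in at least 1 alternative. With the Y-linked covariate 12 members were lower and 0 higher by limma (2 higher at an unadjusted p of 0.05), against 2.71% and 6.09% of all genes, while the median fold change stayed at -0.31.

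Receptors of the VEGF and angiopoietin systems had a like median. Of the 7 receptor genes 5 fell and 2 rose, with a median of -0.32: Tek (-0.85 ± 0.07), the angiopoietin receptor, was lowest, and Nrp1 (0.66 ± 0.12), a neuropilin that mesenchyme and neurons also carry, was highest. Among 45 further endothelial genes, outside both sets, 16 fell and 1 rose, with a median of -0.15. For comparison, 6.56% of all genes tested were called lower and 10.4% higher. The largest falls were in Bcl6b (-0.75 ± 0.08), a transcriptional repressor, the receptor gene Gpr182 (-0.67 ± 0.07), Cyyr1 (-0.57 ± 0.08) and the apelin receptor gene Aplnr (-0.53 ± 0.07). Both medians lay below 0, with single estimates below 0 for 28 of the 36 members and 34 of these 45 genes, and the difference between the medians was not tested.

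Among markers of other cells that share these genes some were lower as well. Of all genes tested 6.56% were called lower and 10.4% higher. Of 13 erythroid markers 6 fell (median -0.52). In 12 of the 13 every homozygous value lay below every heterozygous value, against 17.2% of all genes. Their summed intensity was 2744 to 2989 on the homozygous arrays, against 4076 to 4656 on the heterozygous arrays. Of 8 megakaryocyte and platelet markers 4 fell (median -0.29), with sums of 954 to 1224 on the homozygous and 1472 to 1802 on the heterozygous arrays. That gap was carried mostly by Ppbp, which averaged 179 in homozygous and 565 in heterozygous spleens. In 6 of the 8 every homozygous value lay below every heterozygous value. Platelets also store the products of Vwf, which rose, and Mmrn1, which fell, and their part in either change was not tested. Of 8 blood progenitor markers 3 fell, Kit (-0.72 ± 0.06), Mecom (-0.44 ± 0.08) and Myb (-0.22 ± 0.07), and the others had estimates above 0, so that the median was 0.09. Their sums were 1113 to 1155 on the homozygous and 1294 to 1413 on the heterozygous arrays, a gap carried mostly by Kit, which averaged 315 in homozygous and 521 in heterozygous spleens. Blood cells of these kinds also express some of Cd34, Lmo2, Tal1, Fli1, Esam, Pecam1, Vwf and Mmrn1, and their part in the result was not tested. The lowest intensity on each array lay between 2.75 and 3.33, and there were no detection calls. Levels above 0 therefore do not show that these cells were present.

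For macrophages, which share Lyve1 and Stab1, 0 of 15 markers passed by limma (4 had an unadjusted p below 0.05, 3 of them higher). Their median was 0.08, and their sums were 3769 to 4082 on the homozygous and 3701 to 3841 on the heterozygous arrays, which overlap. Mrc1, a mannose receptor of macrophages and of some sinusoidal and lymphatic endothelium, lay nearest the threshold (0.27 ± 0.08, adjusted p = 0.0574), next to Timd4 (0.16 ± 0.06, adjusted p = 0.0917). The part of macrophages in the rises of Lyve1 and Stab1 was not tested.

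Markers of neighbouring or supporting tissue were mostly not called, and the calls of epithelial, pancreatic and enteric markers were rises. Of all genes tested 6.56% were called lower and 10.4% higher. In the epithelial, pancreatic and enteric lists 0 estimates lay below 0, against 46.4% of all genes. All homozygous values lay above all heterozygous values for 7 epithelial, 4 pancreatic and 5 enteric markers, against 21.1% of all genes. Among 10 mural cell markers, for the pericytes and smooth muscle that wrap vessels, 3 rose and 1 fell (median 0.03). Des (0.64 ± 0.06), Abcc9 (0.56 ± 0.09) and Kcnj8 (0.53 ± 0.06) rose and the receptor Pdgfrb fell (-0.24 ± 0.06). Of 10 epithelial markers 3 rose (median 0.28), led by Cldn6 (0.88 ± 0.24), of 8 pancreatic markers 3 rose (0.37), with Cpa1 (1.77 ± 0.30) first among the called ones, and of 7 enteric neuron and glia markers 3 rose (0.37), led by Stmn2 (0.81 ± 0.07). The summed intensity of pancreatic markers was 2797 to 6091 on the homozygous arrays, against 1303 to 1854 on the heterozygous arrays. It rested largely on Cpa1 and on Gcg, the glucagon gene, named here after its values were seen, which had 3751, 761 and 2728 in homozygous spleens, against 98, 659 and 1032 in heterozygous spleens. Gcg had the highest estimate of these markers but overlapped between the groups and did not pass (2.28 ± 0.85, adjusted p = 0.0986). The summed intensity of epithelial markers was 3621 to 3976 on the homozygous and 2768 to 3535 on the heterozygous arrays, and that of enteric markers 763 to 822 on the homozygous and 527 to 578 on the heterozygous arrays. Of 5 mesothelial markers (median -0.08) 1 rose, Msln (0.47 ± 0.08), and 1 fell, Wt1 (-0.33 ± 0.06). Among 5 liver markers (median -0.05) 0 passed (1 at an unadjusted p below 0.05), with Ttr at 1.19 ± 0.47 (adjusted p = 0.113) and Afp at -0.49 ± 0.28 (adjusted p = 0.257). The part of these tissues in the levels of the endothelial genes was not tested.

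**Figure D4:**
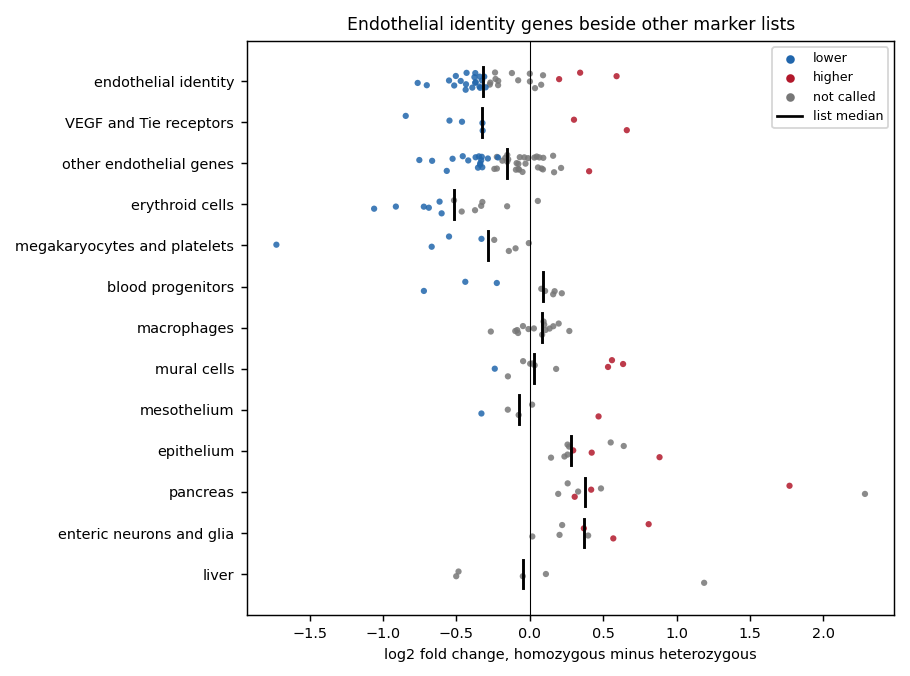
Log2 fold change, homozygous minus heterozygous, of each measured gene (points) in the endothelial identity set and in 12 other lists, coloured blue where called lower, red where called higher and grey where not called, with the list median as a black bar. The endothelial identity, VEGF and Tie receptor, erythroid and platelet lists have medians of -0.52 to -0.29, and the other endothelial genes have a median of -0.15. The epithelial, pancreatic and enteric lists have medians of 0.28 to 0.37.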

How the data were processed

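Total RNA of 6 spleen samples was hybridised to Affymetrix arrays, with 1 array per sample. The deposited intensities were made by the authors with GCRMA, per the submitters' processing notes, which corrects background, normalizes between arrays and summarises probe sets; the GCRMA version and the genome build were not given in the sources used here. Intensities are linear, with a lowest member value of 71.3 intensity units, and carry no detection calls, so no background level per probe set was known.

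Of 35512 probe sets, GEO's platform annotation gave 21789 exactly 1 symbol, 1621 several and 12102 none. Identifiers of 21698 were found in the RefSeq table of GRCm38.p6, and 0 symbols changed. Named probe sets that reached a log2 value of 4 (intensity 15) on 3 or more arrays were kept, and the brightest per gene was used, giving 18710 genes. All 36 members have 1 such probe set; 1 further probe set that names a member among several genes was not used. R 4.3.3 with limma 3.58.1 (lmFit, then eBayes without a trend) fitted log2(intensity + 1) on the 6 arrays without covariates, two-sided, with Benjamini-Hochberg adjustment over all genes and calls at 0.05. The added 1 pulls fold changes of dim genes toward 0, and the number of arrays limits the precision.

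The members and all lists were chosen with earlier results of these data known. All 36 members are named; other lists contribute at most 4 called genes, those that changed most, or, where none was called, the 2 of lowest p. The 17 alternatives were 2 other filters, a pseudocount of 16, averages over a gene's probe sets, quantile normalization, cyclic loess, median centring, a variance trend with a robust fit, array weights, a block for the replicate number, a covariate made of the mean log2 level of 3 Y-linked genes, and 6 refits that each left out 1 array. The stricter filter asked for a log2 value of at least 6. Scan dates and batches were not analysed here.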

Additional observations from a re-analysis of the deposited data

How the results depend on the processing

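The fall of the endothelial identity genes kept its direction in all 17 alternatives, with member medians between -0.34 and -0.27. The median moved by more than the spread between replicates with quantile normalization (-0.27) and cyclic loess (-0.28), and without 1 array it ranged from -0.34 to -0.29. Counts moved by more than 1.5 times with the Y-linked covariate (12 lower, 0 higher) and without 1 array (12 to 22 lower and 1 to 2 higher, the 12 without homozygous replicate 1). Of all genes, 2.71% were lower and 6.09% higher with that covariate. Without homozygous replicate 1 these shares were 2.67% and 3.74%. Among 612 member values under alternatives, 532 kept their direction and side of the threshold, 44 lost a call, 19 gained one and 17 changed sign, none of these in a gene called in the main comparison. The changes of sign all lay near 0. Eng was at -0.017 with median centring, -0.045 with array weights, -0.017 with the Y-linked covariate and between -0.085 and 0.053 without 1 array. Stab2 was at -0.00012 with a pseudocount of 16, -0.036 with cyclic loess, -0.018 with median centring and between -0.042 and 0.055 without 1 array. Procr was at -0.0054 with cyclic loess, Tal1 ranged from -0.031 to 0.17 and Prox1 from -0.13 to 0.0046 without 1 array. Refits without 1 array use fewer samples; otherwise the cause was not tested. The labels do not say whether replicate numbers pair the samples. Deviations of same-numbered arrays correlated across genes at -0.01, 0.04 and -0.11. Those of differently numbered arrays correlated at -0.09 to 0.10, and with so few arrays these values cannot settle the question. With the replicate block 21 members were lower and 2 higher, against 5.73% and 11.2% of all genes. Sox17 gained its call there and Stab1 lost it. Tlx1 was called lower in every alternative. The number of arrays and the lack of detection calls limit what can be said of dim genes.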
